A study of Mus musculus with 8 samples.

Results

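Progenitors that lack the transcription factor Tcf1 were compared with wildtype progenitors across 21789 array probesets, each assigned to exactly 1 gene. The comparison rested on 6 of the 8 arrays of the series, 3 from deficient and 3 from wildtype cells, each labelled as a biological replicate. In both groups lymphoid primed multipotent progenitors (LMPPs) were sorted from bone marrow of Tcf7-/- or wildtype mice and cultured for 4 days on the stromal line OP9-DL4, whose cells present the Notch ligand DL4. The medium of all cultures held Flt3L at 5 ng/ml and a cytokine that the labels write as IL1 at 1 ng/ml. CD45.2-positive cells without Mac1, Gr1, Thy1 and CD25 at the surface were then sorted and are called lineage-negative here. The other 2 arrays held wildtype T lineage cells, sorted from the same kind of culture as Thy1+CD25+. The Tcf7-/- line carries the deletion in every cell from the germline on, was backcrossed for about 6 generations and was kept on that mixed background. The ages and sexes of the mice are not given in the labels, and whether deficient and wildtype mice were littermates is not stated in the sources used here.

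Tcf1, the product of Tcf7, is an HMG box factor that binds DNA at sites shared with Lef1 and can work with beta-catenin. It is among the first T lineage factors to appear after Notch signalling reaches a progenitor. Factors such as Gata3 and Bcl11b, the recombinases and the CD3 chains follow as cells commit, and the same progenitors can also give dendritic, myeloid and NK cells. The comparison asks how cells still outside the T lineage gate differ when Tcf1 is missing. Tcf7 transcript was not analysed here, and the genotypes are therefore taken from the labels alone.

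The values are log2 intensities, so a difference of 1 is a change of 2-fold in measured signal. Differences are deficient minus wildtype, with a standard error (SE) or a 95% interval from limma. An adjusted p is limma's, with Benjamini-Hochberg adjustment over all 21789 probesets, and a gene passed where it was under 0.05. An exact permutation test of 3 against 3 arrays cannot give a p below 0.1 and was therefore not used for single genes.

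The labelled identity was checked on the genes of the sort. Ptprc, which encodes CD45, stood between 11.88 and 12.01 on the 6 lineage-negative arrays. Thy1 stood between 8.26 and 8.76 on them, against 12.52 and 11.88 on the T lineage arrays. Kit, the receptor of stem cell factor, lay between 9.40 and 10.01, and Flt3 between 10.23 and 10.65. Of the gated-out markers, Ly6g (Gr1) stood between 4.59 and 4.87, against 4.87 and 4.53 in T lineage cells. Itgam (Mac1) stood between 7.81 and 8.34, above the 6.25 and 7.04 of T lineage cells, although the gate was Mac1-negative. Transcripts of other blood lineages were measured in both genotypes. H2-Aa, an MHC class II chain of antigen-presenting cells, stood between 11.24 and 11.59, against 5.60 and 6.40 in T lineage cells. S100a9, a calcium-binding protein of granulocytes and monocytes, stood between 9.10 and 10.87, against 6.37 and 6.24. The lineage-negative gate thus held such transcripts besides those of progenitors. In bulk samples, fewer cells of a type and less RNA per cell cannot be told apart.

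1 gene passed the test. Il2ra, which encodes CD25, a receptor chain for interleukin-2 and an early surface marker of T lineage entry, stood at 6.17, 5.71 and 5.97 in the deficient arrays and at 6.91, 6.97 and 7.03 in the wildtype arrays. All 3 deficient arrays lay below all 3 wildtype arrays. The log2 difference was -1.02 (SE 0.10, 95% interval -1.25 to -0.79, limma adjusted p = 0.0283), a fall of 2.03-fold. On the 2 T lineage arrays Il2ra stood at 12.24 and 12.22, far above both. CD25 protein was used to gate both lineage-negative groups. The purity of the sorts was not examined here, and whether the fall lies within CD25-negative cells was not tested. Among all probesets 0.00459% passed (1 of 21789), and 0 passed in the higher direction.

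The call of Il2ra did not hold under every setting. Adjusted p rose past the threshold when deficient array 3 (0.132), wildtype array 2 (0.138) or wildtype array 3 (0.219) was left out, with the replicate number as a block (0.151) and when the probesets without a single gene were tested too (0.268). Over all 18 alternative settings the difference kept its sign and lay between -1.13 and -0.90, with an adjusted p between 0.00539 and 0.268. The setting without the dimmest probesets could not test whether Il2ra was bright enough in lineage-negative cells. It kept Il2ra, with means of 5.95 in deficient, 6.97 in wildtype lineage-negative and 12.23 in T lineage arrays. It left out Ccr9, with means of 6.56, 7.20 and 5.43 in that order. Il2ra was thus kept through its T lineage level.

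The promoter of Il2ra is shown because it was the 1 gene that passed, beside those of Bst2 and Siglech, 2 surface markers from the plasmacytoid dendritic cell list, where groups stood apart. Each is the stretch of 250 bases before the RefSeq start of the gene (build GRCm38.p6), written 5′ to 3′ on the strand of the gene. Il2ra lies at chr2:11642542-11642791 on the + strand, Bst2 at chr8:71537473-71537722 on the - strand and Siglech at chr7:55767934-55768183 on the + strand. Capitals mark exact matches on either strand to CTTTGA (a core of TCF/LEF sites), TGGGAA (a core of RBPJ sites, through which Notch acts) and TTCNNNGAA (a STAT site).
Il2ra: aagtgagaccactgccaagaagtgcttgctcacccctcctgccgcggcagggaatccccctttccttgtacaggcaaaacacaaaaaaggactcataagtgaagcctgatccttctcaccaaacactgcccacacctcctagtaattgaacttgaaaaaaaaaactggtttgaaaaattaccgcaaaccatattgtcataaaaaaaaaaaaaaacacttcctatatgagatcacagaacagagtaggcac
Bst2: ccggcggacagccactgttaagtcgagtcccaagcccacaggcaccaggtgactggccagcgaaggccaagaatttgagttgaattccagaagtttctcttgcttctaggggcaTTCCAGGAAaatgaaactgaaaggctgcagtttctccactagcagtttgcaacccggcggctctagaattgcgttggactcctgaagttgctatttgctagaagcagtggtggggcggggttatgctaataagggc
Siglech: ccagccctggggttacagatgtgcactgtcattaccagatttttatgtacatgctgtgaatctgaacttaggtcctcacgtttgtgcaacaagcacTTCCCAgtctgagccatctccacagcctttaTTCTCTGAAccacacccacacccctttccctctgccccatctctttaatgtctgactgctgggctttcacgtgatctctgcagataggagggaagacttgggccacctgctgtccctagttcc
The Il2ra window held none of the 3 motifs. The Bst2 window held TTCNNNGAA 136 bases before the start, and the Siglech window held TTCNNNGAA 123 bases before it and TGGGAA, on the other strand, 154 bases before it. Of all 32851 windows of this length, 13.8% held CTTTGA, 21.6% held TGGGAA and 7.02% held TTCNNNGAA. Of the 27 genes with the smallest p or the largest differences, 18 had a window. Among their 24 windows CTTTGA was in 3 (12.5%; H2aw, Pgr and Wfdc17), TGGGAA in 3 (12.5%; Cc2d2a, Cnot8 and Slc7a11) and TTCNNNGAA in 2 (8.33%; Hamp and Slc7a11). A match is a run of letters and not a measured binding site.

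Across the genome the genotypes lay close together. The median size of the difference was 0.06 on the log2 scale (1.04-fold), 90% of probesets differed by less than 0.16 and 99% by less than 0.35 (1.28-fold). The median 95% interval reached 0.19 to either side (1.14-fold), which is the precision that 3 arrays a group gave for a typical probeset. For 96.3% of probesets the whole interval lay within 0.5 of 0, and for 99.8% it lay within 1 of 0. A size of at least 0.5 was reached by 74 probesets, 54 of them lower and 20 higher in deficient cells (0.34% of all). This balance rested on single arrays in part, since it was 32 lower and 32 higher without wildtype array 3 and 46 lower and 34 higher without deficient array 2. A size of at least 1 was reached by 5 probesets, which were Il2ra and 4 sex-linked genes. Side by side, T lineage minus wildtype lineage-negative cells, a comparison that shares the wildtype arrays, had a median size of 0.13, with 2054 probesets at 0.5 or more and 666 at 1 or more.

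**Figure D1:**
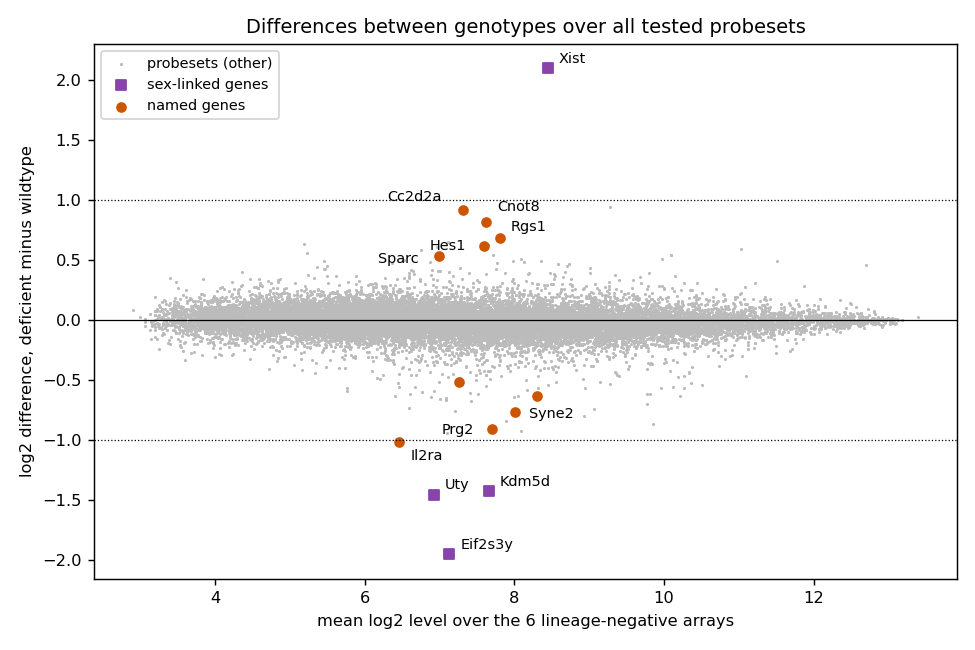
Log2 difference (deficient minus wildtype lineage-negative cells) of each of the 21789 probesets against its mean log2 level on the 6 arrays, with 8 named genes and 4 sex-linked genes marked, and dotted lines at a size of 1. Syne2 is marked for its 3 probesets of smallest p. Most probesets lie close to 0, and Il2ra at -1.02 and the sex-linked genes stand outside the cloud.

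At an unadjusted p under 0.05 there were 1071 probesets (4.92% of those tested), where 5% of all would be 1089. Of these, 670 were lower (3.07% of all) and 401 higher (1.84%) in deficient cells, so 62.6% were lower. The balance depended on the scaling, since after a second quantile normalization 568 were lower and 522 higher (52.1% lower). In 2167 probesets (9.95%) the 3 deficient and 3 wildtype arrays did not overlap, 1310 of them lower (6.01%) and 857 higher (3.93%). The difference was below 0 in 53.5% of all probesets.

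Correlations and gaps between arrays of different genotype lay in the range of those within a genotype. Across probesets, which are not independent replicates, r was 0.995 to 0.996 within deficient, 0.996 to 0.997 within wildtype and 0.995 to 0.996 between deficient and wildtype arrays. The typical gap between arrays (root mean square over probesets) was 0.177 to 0.216 within deficient, 0.162 to 0.181 within wildtype and 0.171 to 0.204 between them. The first principal component of the 6 arrays (27.9% of variance) placed the deficient arrays at -12.62, 17.82 and 1.45 and the wildtype arrays at 2.32, -3.78 and -5.18, so the groups overlapped on it. On the second (24.1%) the deficient arrays stood at -7.23, 0.84 and -14.43 and the wildtype arrays at 1.48, 8.20 and 11.13, without overlap. Xist, which is transcribed in females, stood between 11.49 and 11.79 on deficient arrays 1 and 3 and wildtype array 2 and between 4.72 and 5.77 on the other 3, and the Y-linked genes Uty, Kdm5d and Eif2s3y ran the opposite way. Sex as read from these genes therefore differed between groups (2 of 3 deficient and 1 of 3 wildtype arrays with high Xist). Within the high-Xist arrays Il2ra stood at 6.17 and 5.97 in deficient and 6.97 in wildtype cells. Within the others it stood at 5.71 in deficient and 6.91 and 7.03 in wildtype cells. With sex as a covariate its difference was -1.06 (adjusted p = 0.0453).

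Of the other probesets, 8 reached an adjusted p under 0.1 without passing, and 3 of these 8 belonged to Syne2. In all, 22 probesets of 19 genes (0.101%) lay under 0.2, 13 lower and 9 higher in deficient cells. Syne2, which encodes nesprin-2, a protein that ties the nuclear envelope to the cytoskeleton, had 4 probesets, and all 4 stood lower without overlap of the groups. On its probeset of smallest p the deficient arrays stood at 7.79, 7.57 and 7.49 and the wildtype arrays at 8.30, 8.35 and 8.51, with 6.19 and 6.09 in T lineage cells. The 4 differences were -0.77 (adjusted p = 0.0713), -0.64 (0.0862), -0.52 (0.0967) and -0.80 (0.121). These probesets read the same gene and are not replicates of each other, and 6.01% of all probesets stood apart on the lower side. With the probesets of a gene averaged first, Syne2 passed at -0.68 (adjusted p = 0.0238).

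Other genes of small p whose arrays lay lower in deficient cells also did not pass. Prg2, the major basic protein of eosinophil granules, stood at 7.47, 7.14 and 7.13 in deficient and 7.97, 8.41 and 8.07 in wildtype cells (-0.90, SE 0.13, adjusted p = 0.0962). Lifr, the receptor of leukaemia inhibitory factor, stood at 8.97, 8.66 and 8.44 against 9.38, 9.36 and 9.55 (-0.74, adjusted p = 0.14). In T lineage cells it stood lower still, at 5.92 and 5.81. Atp1b1, the beta subunit of the sodium and potassium pump, stood at 9.82, 9.57 and 9.64 against 10.19, 10.26 and 10.27 (-0.57, adjusted p = 0.132). Raph1, a regulator of actin at the leading edge of moving cells, differed by -0.64 (adjusted p = 0.238) and Hamp, the precursor of the iron hormone hepcidin, by -0.41 (adjusted p = 0.198). In each of these genes the 3 deficient arrays lay below the 3 wildtype arrays, which for Raph1 was required by the rule that named it.

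The genes of small p on the higher side were fewer. Rgs1, which ends signalling from G protein-coupled receptors, stood at 7.98, 8.25 and 8.21 in deficient and 7.41, 7.46 and 7.52 in wildtype cells (0.68, SE 0.10, adjusted p = 0.0962). Cc2d2a, a protein of the base of the cilium, stood at 7.73, 7.87 and 7.71 against 7.15, 6.60 and 6.80 (0.92, SE 0.13, adjusted p = 0.0967). It passed with sex as a covariate (1.01, adjusted p = 0.0453). Pde3b, a phosphodiesterase of cyclic nucleotides, differed by 0.51 (adjusted p = 0.167) and Ube2e2, a ubiquitin-conjugating enzyme, by 0.54 (adjusted p = 0.198). Groups did not overlap in any of the 4, which for Ube2e2 was required by the rule that named it.

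Hes1, a repressor that Notch switches on directly, stood at 7.88, 7.72 and 8.08 in deficient and 7.22, 7.20 and 7.43 in wildtype cells. Every deficient array lay above every wildtype array, and T lineage cells stood at 7.91 and 8.16. The difference was 0.61 (SE 0.11, 95% interval 0.37 to 0.86) and did not pass (adjusted p = 0.198), and it lay between 0.52 and 0.70 over the alternative settings. Dtx1, a Notch pathway regulator, differed by 0.09 (95% interval -0.12 to 0.30), and Nrarp, a feedback inhibitor, by 0.13 (-0.07 to 0.32). Notch1, the receptor, stood at 8.49, 8.71 and 8.93 against 8.66, 8.07 and 8.36, with overlapping groups (0.35, interval 0.03 to 0.67, adjusted p = 0.979). Of 15 measured Notch targets 1 fell (Il2ra), 0 rose and 14 did not pass, with 9 differences above and 6 below 0 and a median of 0.05. Of 22 genes of Notch receptors and pathway machinery 0 passed, and the median was 0.01. Mfng, which adds sugars to Notch, differed by 0.22 (adjusted p = 0.827).

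**Figure D2:**
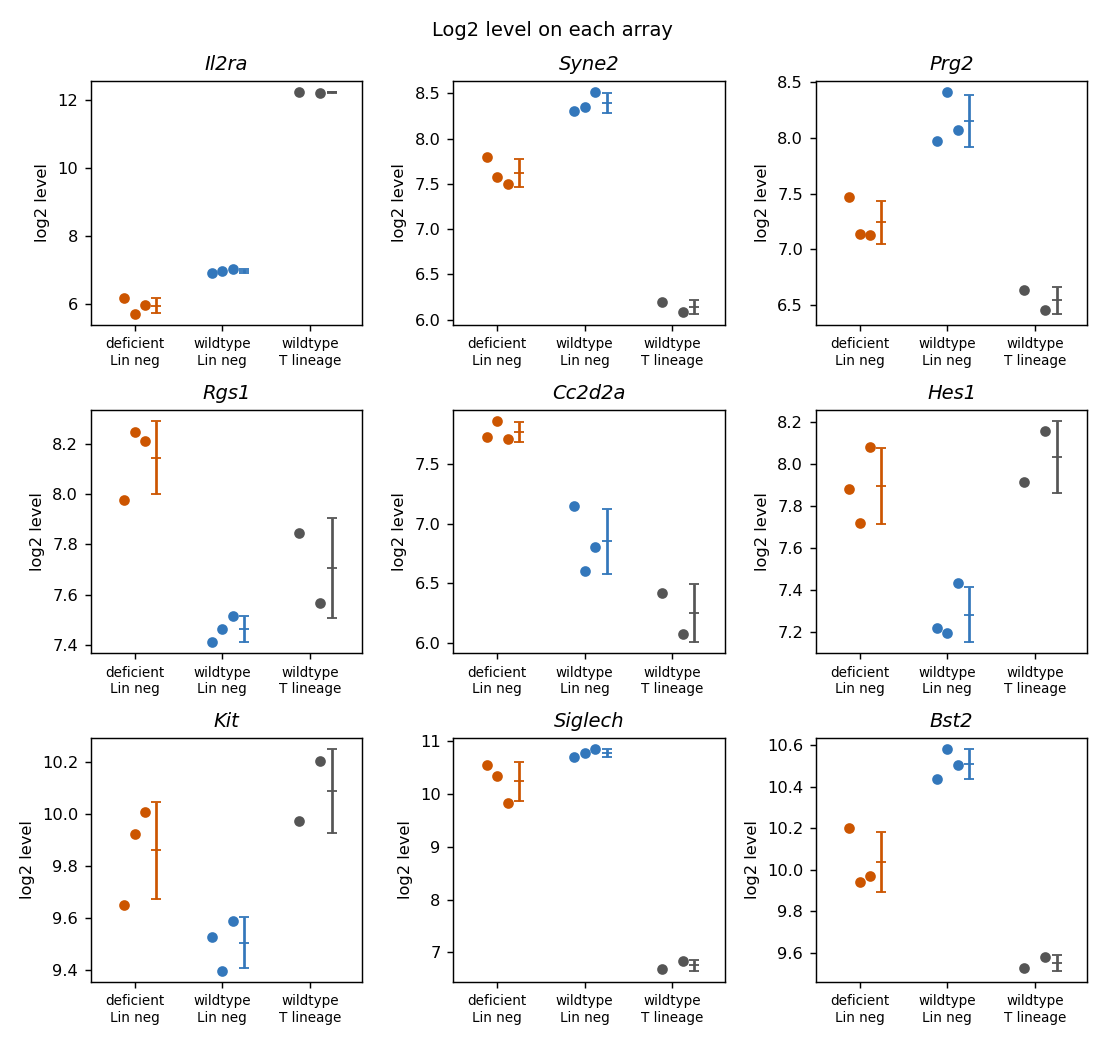
Log2 level on each of the 8 arrays for 9 named genes, with deficient, wildtype lineage-negative and T lineage arrays as separate columns of points and each group's mean ± SD (n = 3, 3 and 2) as a bar beside them. Each panel has its own scale, and Syne2 is shown by its probeset of smallest p. In the Il2ra panel the deficient arrays (5.71 to 6.17) lie below the wildtype arrays (6.91 to 7.03), and in the Hes1 panel they lie above (7.72 to 8.08 against 7.20 to 7.43).

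Genes of the T lineage program showed no difference that passed besides Il2ra. Gata3, a factor needed from the earliest T cell stages, stood at 7.06, 7.34 and 7.41 in deficient and 7.40, 6.93 and 7.17 in wildtype cells, with 8.98 and 8.70 in T lineage cells. The groups overlapped and the difference was 0.11 (95% interval -0.19 to 0.40). Bcl11b, which locks T lineage commitment, stood at 6.65, 6.75 and 6.59 against 6.63, 6.64 and 6.53, with 7.12 and 7.09 in T lineage cells (0.07, interval -0.09 to 0.22). Lef1, the family member closest to Tcf1, differed by -0.07 (-0.45 to 0.30). Both lineage-negative groups thus lay below the T lineage arrays for Gata3, Bcl11b and Lef1. Of 20 measured T lineage transcription factors 0 passed and 0 had an unadjusted p under 0.05, 12 differences lay above 0, the median was 0.01 and the extremes were -0.20 (Tox) and 0.19 (Runx3). In none of these 20 did the groups stand apart, beside 9.95% of all probesets.

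The receptor and recombinase genes of the panel did not pass either. Cd3g, which encodes CD3 gamma, stood at 4.99, 5.16 and 5.08 in deficient and 4.86, 4.85 and 4.72 in wildtype cells, against 11.52 and 10.21 in T lineage cells. The deficient arrays lay above the wildtype arrays by 0.27 (interval -0.27 to 0.81), and with only the 6 lineage-negative arrays fitted its adjusted p was 0.641. Cd3e differed by 0.02 (-0.33 to 0.38), Thy1 by 0.02 (-0.34 to 0.38) and Ptcra, the surrogate alpha chain, by -0.02 (-0.21 to 0.18). Ptcra stood at 7.14 and 6.97 in T lineage cells, against 7.02 to 7.30 in wildtype lineage-negative cells. Its probeset thus did not tell T lineage from lineage-negative cells. Rag1 and Rag2, the recombinase subunits, differed by 0.18 (-0.40 to 0.77) and 0.16 (-0.20 to 0.51). The intervals of Cd3g and Rag1 are wide beside those of other genes, and the spread they share includes the T lineage pair, which differed from each other by over 1 for both genes (10.22 and 8.86 for Rag1).

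Within the list of the T cell receptor complex and proximal signalling, differences went both ways. Of 25 measured genes 0 passed and 7 had an unadjusted p under 0.05 (4 higher and 3 lower, beside 4.92% of all probesets), 15 lay above and 10 below 0, the median was 0.02, and groups stood apart in 6 higher and 4 lower genes (9.95% of all probesets). Cd28, a costimulatory receptor, stood at 7.73, 7.27 and 7.38 in deficient and 7.86, 8.42 and 8.63 in wildtype cells (-0.84, SE 0.19, adjusted p = 0.522). Trgv1, a variable segment of the gamma chain, stood at 6.86, 6.55 and 6.85 against 7.08, 7.55 and 7.58 (-0.65, adjusted p = 0.466), with 12.09 and 11.77 in T lineage cells. Cd27, a receptor of the TNF family, stood at 10.21, 10.26 and 10.24 against 10.05, 9.95 and 9.91 (0.27, adjusted p = 0.65). For V(D)J recombination 0 of 10 genes passed (median 0.04).

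**Figure D3:**
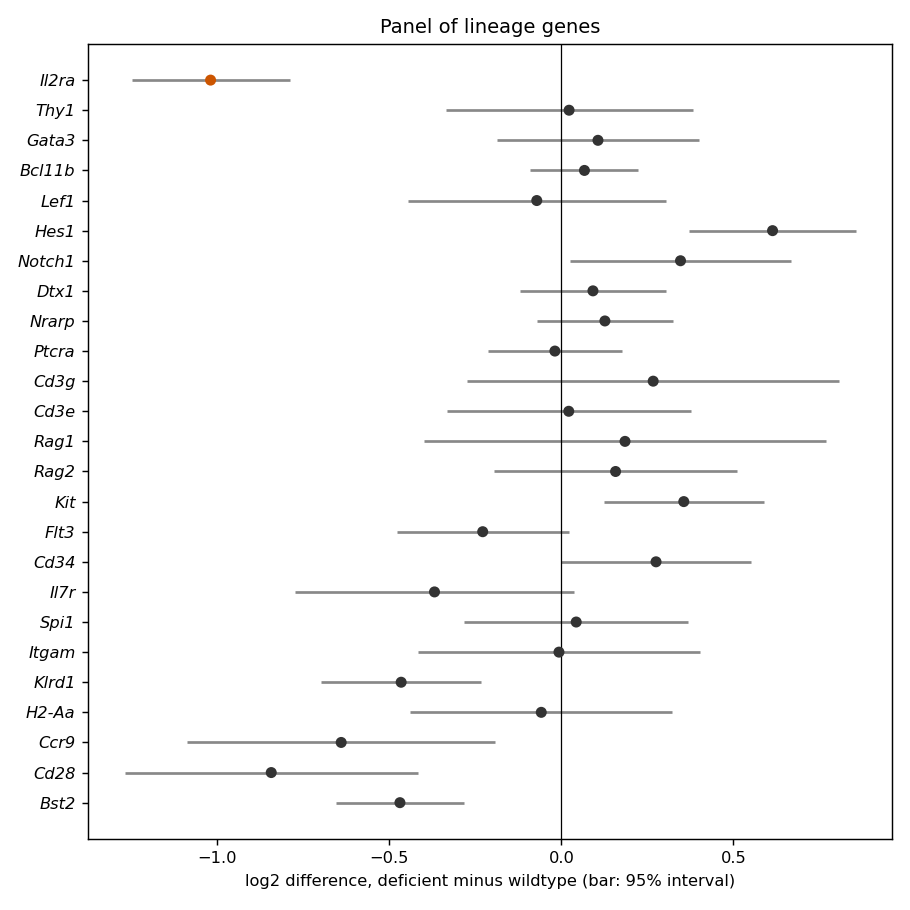
Log2 difference with its 95% interval for the genes of the lineage panel, deficient minus wildtype lineage-negative cells, where the intervals are not adjusted for the number of probesets. Il2ra is the 1 panel gene that passed, and the intervals of Gata3 (-0.19 to 0.40), Bcl11b (-0.09 to 0.22) and Cd3e (-0.33 to 0.38) include 0.

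Targets through which Tcf1 and beta-catenin are known to act showed small differences. Of 16 Wnt and beta-catenin targets 0 passed, 12 lay below 0 (53.5% of all probesets did) and the median was -0.07. Without deficient array 1, and likewise with sex as a covariate, 8 lay below 0. Many of the targets were dim. Leaving out the dimmest 40% of probesets kept 9 of the 16, of which 6 lay below 0 and 0 stood apart. Lgr5, a Wnt target and coreceptor, stood at 6.17, 6.16 and 6.07 in deficient and 6.40, 6.61 and 6.38 in wildtype cells (-0.33, SE 0.08, adjusted p = 0.583). It was the 1 member of 16 whose groups did not overlap, a share close to the 6.01% of all probesets that stood apart on the lower side. Lgr5 was among the dim genes left out by that filter. Axin2, a feedback inhibitor, differed by -0.12 and Myc by 0.13, with overlapping groups in both. Of 15 TCF/LEF family members and partners 0 passed and the median was -0.03. Tcf7l2, another family member, differed by 0.20 (interval 0.01 to 0.39, adjusted p = 0.989).

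Genes of plasmacytoid dendritic cells, which make type I interferon and can arise from Flt3-positive progenitors, lay mostly below 0. Of 13 measured genes 12 lay below 0 (53.5% of all probesets did), the median was -0.35, and in 7 the groups stood apart, all lower (6.01% of all probesets). None passed limma's test over all probesets, and 7 had an unadjusted p under 0.05, all lower (3.07% of all probesets). Leaving out each array in turn gave a median between -0.40 and -0.24. The summed level of the list was 12.81, 12.66 and 12.56 (log2) in deficient and 12.91, 13.02 and 13.06 in wildtype arrays, against 11.33 and 11.31 in T lineage cells, so the genotypes did not overlap. This was not particular to the list. Summed levels also stood apart for the lymphoid priming and mitotic lists (lower in deficient cells) and for the stem and progenitor and stromal lists (higher).

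Siglech, a lectin of the plasmacytoid dendritic cell surface, stood at 10.54, 10.34 and 9.83 in deficient and 10.71, 10.78 and 10.85 in wildtype cells (-0.54, SE 0.15, adjusted p = 0.672). Bst2, a membrane protein of these cells that interferon also induces, stood at 10.20, 9.94 and 9.97 against 10.43, 10.58 and 10.51 (-0.47, SE 0.08, adjusted p = 0.198). Tcf4, the E protein that specifies these cells, stood at 10.91, 10.74 and 10.69 against 10.99, 11.04 and 11.06 (-0.25, adjusted p = 0.847). Spib, an Ets factor of the same cells and of B cells, differed by -0.39 and Ccr9, a homing receptor, by -0.64, the latter with overlapping groups. Ly6d, in contrast, differed by 0.00, with 9.91, 9.97 and 9.89 against 9.85, 9.97 and 9.95.

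Most interferon response genes also lay below 0. Of 19 measured genes 18 lay below 0, with a median of -0.16 (-0.25 to -0.11 with each array left out), 0 passed, 6 had an unadjusted p under 0.05 (3.07% of all probesets on the lower side) and 5 stood apart (6.01%), all lower. Without wildtype array 3 only 1 had an unadjusted p under 0.05 and 14 lay below 0, and without deficient array 2 13 lay below 0. Stat2, a transducer of type I interferon, stood at 8.46, 8.34 and 8.25 in deficient and 8.70, 8.59 and 8.91 in wildtype cells (-0.38, adjusted p = 0.827). Mx2, an antiviral GTPase, differed by -0.35 and Oas2, a sensor of double-stranded RNA, by -0.24, without overlap. The list shares Bst2 and Irf7 with the plasmacytoid list. The summed levels overlapped, at 13.34 to 13.56 in deficient and 13.51 to 13.69 in wildtype arrays.

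Of 23 dendritic cell and MHC class II genes 0 passed and 3 had an unadjusted p under 0.05, all lower (3.07% of all probesets). Of the 23, 19 lay below 0 (53.5% of all probesets did) and the median was -0.08. Cd209a, a lectin of dendritic cells, stood at 6.64, 6.76 and 6.47 against 6.92, 7.13 and 7.61 (-0.59, adjusted p = 0.65) and Irf4, a factor of dendritic and B cells, at 6.33, 6.13 and 6.15 against 6.40, 6.55 and 6.71 (-0.35, adjusted p = 0.65). H2-Aa differed by -0.06 and overlapped. Batf3, a factor of conventional dendritic cells, differed by 0.05.

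Granulocyte and monocyte genes varied among the wildtype arrays. Of 36 genes 0 passed and 6 had an unadjusted p under 0.05, 5 lower (3.07% of all probesets) and 1 higher (1.84%). Of the 36, 26 lay below 0 (53.5% of all probesets did) and the median was -0.05. Without wildtype array 3 it was 19 below 0, 1 lower at an unadjusted p under 0.05 and a median of -0.02, and without wildtype array 1 it was 32, 9 and -0.10. S100a9 stood at 9.39, 9.76 and 9.10 in deficient and 9.55, 10.44 and 10.87 in wildtype cells (-0.87, SE 0.27, adjusted p = 0.778). Wildtype arrays 2 and 3 were high and array 1 lay among the deficient arrays. Its difference lay between -1.24 and -0.58 over the alternative settings. Wfdc17, a small secreted protein of activated macrophages, was likewise highest on wildtype arrays 2 and 3, at 7.72, 7.53 and 7.61 against 7.83, 8.73 and 9.09 (-0.93, adjusted p = 0.65). Without wildtype array 1 it passed, at -1.29 (adjusted p = 0.0233). Clec4a3, a myeloid lectin, stood at 6.32, 6.09 and 6.24 against 6.46, 6.79 and 7.61 (-0.73). Cybb, the phagocyte oxidase subunit, differed by -0.47 with overlapping groups. The summed level of the list was 14.33, 14.29 and 14.38 in deficient and 14.33, 14.48 and 14.77 in wildtype arrays. Its part in the lower plasmacytoid and interferon genes was not tested.

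Stem and progenitor genes lay more often above 0 than below it, and none passed. Of 23 measured genes 18 lay above 0, and the median was 0.13 (0.07 to 0.17 with each array left out). An unadjusted p under 0.05 was reached by 4, all higher (1.84% of all probesets). With 1 array left out, 3 (for example without wildtype array 3) to 8 (without deficient array 1) reached it on the higher side. Groups stood apart in 8 higher (3.93% of all probesets) and 1 lower. Angpt1, a ligand made by early progenitors, stood at 10.20, 10.34 and 10.45 in deficient and 10.00, 9.94 and 9.94 in wildtype cells (0.37, SE 0.09, adjusted p = 0.65). Kit stood at 9.65, 9.92 and 10.01 against 9.53, 9.40 and 9.59 (0.36, SE 0.10, adjusted p = 0.701). Erg, an Ets factor of stem cells, stood at 9.01, 9.42 and 9.26 against 8.92, 8.96 and 8.89 (0.30, adjusted p = 0.811). In T lineage cells all 3 stood at or above the highest wildtype array, Kit at 9.97 and 10.20. Cd34, a sialomucin of progenitors that was low in T lineage cells (9.48 and 9.96), stood at 11.20, 11.13 and 11.34 against 11.04, 10.77 and 11.04 (0.28, SE 0.12, adjusted p = 0.999). Meis1 (0.17) and Hoxa9 (0.13), homeobox factors of early progenitors, also stood apart without passing. Flt3 was the 1 lower member that stood apart, at 10.40, 10.23 and 10.26 against 10.45, 10.47 and 10.65 (-0.23, adjusted p = 0.999).

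**Figure D4:**
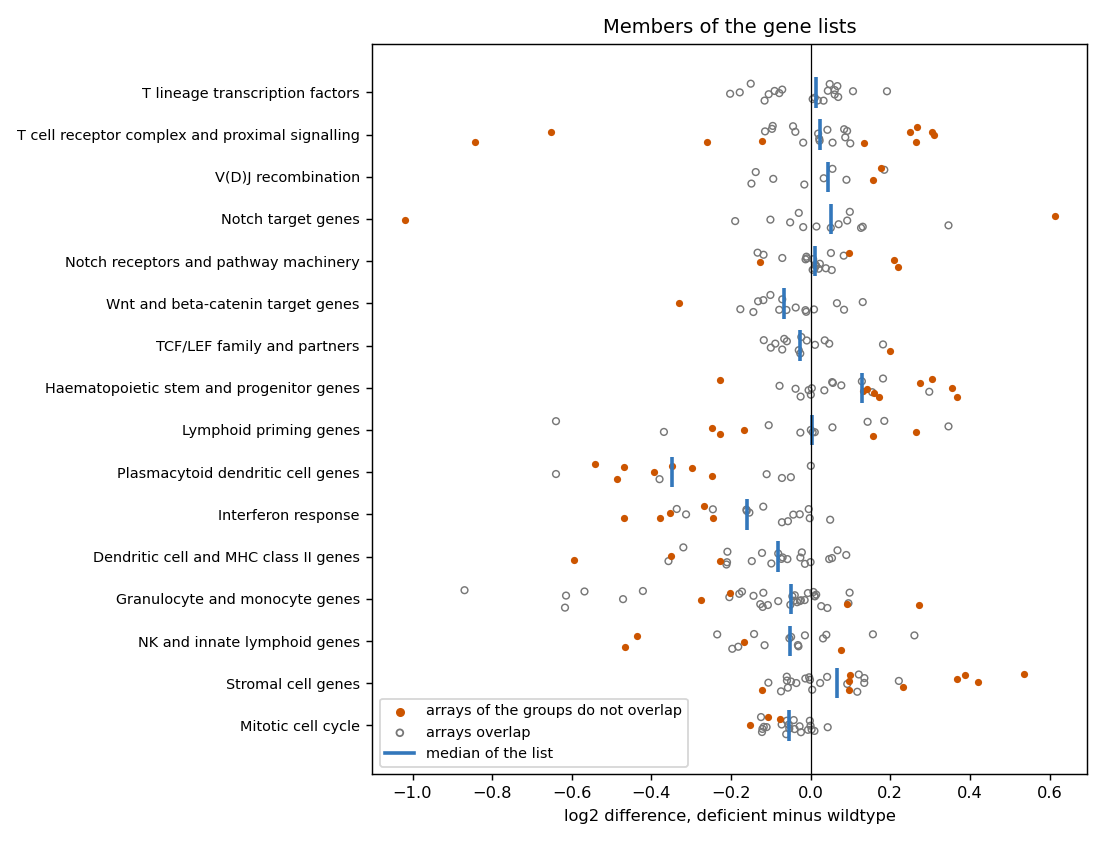
Log2 differences (deficient minus wildtype lineage-negative cells) of the measured members of 16 gene lists as points, filled where the arrays of the genotypes did not overlap, with the list median as a bar. The plasmacytoid dendritic cell list has its median at -0.35, the interferon list at -0.16 and the stem and progenitor list at 0.13, and the other medians shown lie between -0.08 and 0.07.

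Lists of B, NK and mast cell genes had medians near 0, and in some members the groups stood apart. Blnk, a B cell adaptor, stood at 7.30, 7.23 and 6.78 in deficient and 7.56, 7.82 and 7.76 in wildtype cells (-0.61, adjusted p = 0.466), while the 17 B lineage genes had a median of -0.03. Nfil3, a factor of innate lymphoid development, stood at 8.27, 8.45 and 8.29 against 8.74, 8.84 and 8.74 (-0.44, adjusted p = 0.365). Klrd1, an NK receptor chain, stood at 11.04, 10.82 and 10.74 against 11.13, 11.48 and 11.39 (-0.47, adjusted p = 0.491). The 18 NK and innate lymphoid genes had a median of -0.05, with 13 below 0. The 13 mast cell and basophil genes and the 14 erythroid and megakaryocyte genes had medians of 0.00 and 0.01. None of these genes passed. An unadjusted p under 0.05 was reached by 2 B lineage genes (lower), 4 NK genes (3 lower and 1 higher) and 1 mast cell gene (higher). Of all probesets 3.07% reached it on the lower and 1.84% on the higher side. Groups stood apart in 3 lower and 1 higher B lineage genes, 3 lower and 1 higher NK genes and 2 higher mast cell genes. The shares of all probesets were 6.01% lower and 3.93% higher.

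Cell cycle genes differed little, and none had an unadjusted p under 0.05. Of 23 mitotic genes 20 lay below 0, with a median of -0.06 and a range of -0.15 (Cenpf) to 0.04, and of 23 DNA replication genes 17 lay above 0, with a median of 0.03. The lists of lymphoid priming, immediate early and heat shock, apoptosis, homing and cytokine receptor genes had medians of 0.00, -0.02, 0.03, 0.01 and 0.04. Among their members Fasl, a death ligand, stood at 7.69, 7.98 and 8.22 in deficient and 7.03, 7.59 and 7.39 in wildtype cells (0.63, SE 0.21, adjusted p = 0.831). Il7r, the receptor of interleukin-7, differed by -0.37 with overlapping groups (interval -0.77 to 0.04). Jun and Fosb, immediate early factors, differed by 0.38 and 0.37, without passing.

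Stromal transcripts were looked at because OP9-DL4 cells shared the culture. Of 28 measured genes 17 lay above 0, the median was 0.07, 0 passed, 5 had an unadjusted p under 0.05, all higher (1.84% of all probesets), and groups stood apart in 8 higher (3.93%) and 1 lower (6.01%). Cxcl12, a chemokine of marrow stroma, differed by 0.42 without overlap, and deficient array 1 was the highest at 7.27. Pdgfrb, a receptor of mesenchymal cells, stood at 8.21, 8.39 and 8.58 against 8.10, 7.87 and 8.04 (0.39, adjusted p = 0.688). The summed level of the list was 11.66 to 11.79 in deficient and 11.59 to 11.62 in wildtype arrays. Its part in the stem and progenitor genes was not tested. Sparc, a matrix protein in this list, stood at 7.27, 7.32 and 7.20 against 6.62, 6.84 and 6.73 (0.54, SE 0.08, adjusted p = 0.0997), and its gene lies on the chromosome of Tcf7.

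The targeted locus lies on chromosome 11, and genes of small p were counted around it. Within 10 Mb of Tcf7 (RefSeq positions, GRCm38.p6) 282 probesets of 270 genes were tested. An adjusted p under 0.2 was reached by 4 of them (1.42%, beside 0.101% of all probesets), and a size of at least 0.5 by 5 (1.77%, beside 0.34%). On the rest of chromosome 11, 0 of 1388 probesets reached 0.2. By their gene symbols all 4 lay on the side of higher coordinates, where 10.4% of 173 probesets had an unadjusted p under 0.05, beside 1.85% of 108 on the other side and 4.54% on the rest of the chromosome. Within 5 Mb of Tcf7, 3.2% of 125 probesets had an unadjusted p under 0.05 (4.92% of all) and 1 reached an adjusted p under 0.2. Positions are those of the gene symbol. The numbers of the array's probesets run along the chromosomes, and where only probesets whose number lay among those of chromosome 11 were counted, a check added after the data were seen, 3 of 280 (1.07%) reached 0.2. No test of these shares was made.

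The 4 genes went both ways. Sparc lies 3.11 Mb from Tcf7. The gene 1810065E05Rik, at 6.14 Mb, stood at 5.63, 5.49 and 5.38 in deficient and 4.87, 4.94 and 4.80 in wildtype cells (0.63, SE 0.08, adjusted p = 0.0725), with 4.68 and 4.69 in T lineage cells. Cnot8, a subunit of a deadenylase complex whose gene lies at 5.81 Mb, was the probeset left out by that check, since its 4 neighbours by number lie on chromosome 8. It stood at 8.02, 7.97 and 8.10 against 7.12, 7.29 and 7.22 (0.82, SE 0.13, adjusted p = 0.13). It passed when only the 6 lineage-negative arrays were fitted (adjusted p = 0.0194). Its other probeset, numbered among those of chromosome 11, differed by 0.14. Where in the genome the first probeset lies was not tested. Zfp39, a zinc finger gene at 6.60 Mb, stood at 8.21, 8.15 and 8.16 against 8.55, 8.84 and 8.76 (-0.54, adjusted p = 0.129). The next genes of this stretch, named after their values were seen, were Zfp672 (-0.46, 6.03 Mb), Fam114a2 (-0.34, 5.20 Mb) and H2aw, a histone gene (-0.70, 6.67 Mb). H2aw stood at 9.48, 9.32 and 9.49 against 10.41, 9.66 and 10.33, and without wildtype array 2 it was the 1 gene that passed (-0.94, adjusted p = 0.0262). Fbxw10, just outside the window at 10.6 Mb and likewise named after its value was seen, differed by 0.42 (adjusted p = 0.375) without overlap. What sets this segment apart was not tested.

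**Figure D5:**
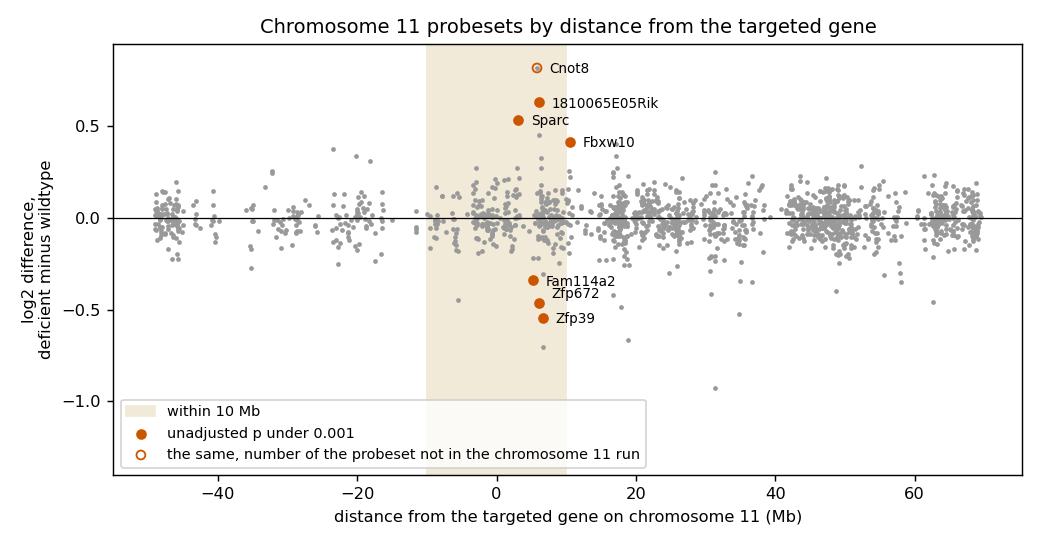
Log2 difference (deficient minus wildtype lineage-negative cells) of chromosome 11 probesets against the distance of their gene from Tcf7 in Mb. Distance is taken between the nearest edges of the genes and is negative on the side of lower coordinates. Marked points have an unadjusted p under 0.001 (open for the Cnot8 probeset whose number lies among those of chromosome 8) and lie between 3.11 and 10.6 Mb on the side of higher coordinates, and points of similar or larger size elsewhere, such as Wfdc17 (-0.93 at 31.4 Mb), do not reach that p.

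Small noncoding RNAs were among the largest differences on the higher side. Rnu3a, a U3 small nucleolar RNA gene, stood at 9.64, 9.22 and 10.39 in deficient and 9.04, 8.36 and 9.01 in wildtype cells (0.94, SE 0.27, adjusted p = 0.688), with 10.32 and 10.73 in T lineage cells. Rpph1, the RNA of ribonuclease P, stood at 11.16, 11.15 and 11.69 against 10.57, 10.51 and 11.13 (0.60, adjusted p = 0.847). Scarna17, a Cajal body RNA, differed by 0.54, and its 2 probesets held the same values. Groups stood apart for all 3, as the rule that named them required. Array 3 of each genotype was the highest or next to highest.

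The remaining genes of the rule for largest differences did not pass either. Slc7a11, a cystine and glutamate exchanger, stood at 7.21, 6.70 and 7.21 in deficient and 6.60, 6.30 and 6.47 in wildtype cells (0.58), and Pgr, the progesterone receptor, at 7.57, 7.08 and 7.14 against 6.90, 6.60 and 6.47 (0.61). Il13ra1, a receptor chain of interleukin-13, stood at 7.17, 6.92 and 7.15 against 7.45, 7.69 and 8.14 (-0.68).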

How the data were processed

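RNA was measured on 8 mouse arrays from 10 ng of amplified RNA each, per the labels' protocols. The deposited log2 values per probeset were made by the authors with RMA (background correction, joint normalisation and summary of probes) in Partek 6.5, per the submitters' processing notes. The log2 scale was read from the values, the probe summary compresses large differences, and the sources used here give neither other options nor the array's build. Of 35399 probesets, 11989 had no gene and 1621 several, and both were left out. The gene identifier matched RefSeq for 99.6% of the other 21789. Array medians lay between 6.85 and 6.91 and precision is limited by the number of arrays. Separate animals are labelled only as biological replicates.

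All 8 arrays were fitted as 3 groups by lmFit and eBayes (limma 3.58.1, R 4.3.3; two-sided tests, 5 residual degrees of freedom). The Benjamini-Hochberg adjustment covered all 21789 probesets, with 0.05 as the threshold. On simulated data with 200 of 21789 probesets changed, the fit recovered 62.7% of changes of 0.5, 97.0% of changes of 1 and 99.7% of changes of 2 on the log2 scale. In those data the 200 changes were spread about evenly over the 3 sizes, and the noise was normal and independent between probesets. The adjustment loosens as more probesets change, so these rates are not the power in the measured data, where 1 probeset passed. Named genes were the 15 probesets of smallest p, the 12 largest differences in each direction among probesets whose groups did not overlap, a panel of 26 genes and the 3 members of smallest p of each of 26 lists (469 genes, 430 measured). Predicted genes and unnamed transcripts were passed over. A gene with several probesets stands for the probeset that met the rule or the one of highest mean. Members, lists and panel were chosen with earlier results of these data known.

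The 18 alternatives were the 6 lineage-negative arrays alone, each of 8 arrays left out, the replicate number as a block, a second quantile normalisation, median centring, no dimmest 40%, array weights, eBayes with trend and robust, all probesets, the mean per gene and a sex covariate. The replicate numbers were checked for pairing.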

Additional observations from a re-analysis of the deposited data

How the results depend on the processing

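The count of calls, 1 in the reported fit, was 0 to 12 with 1 array left out. It was 2 with the 6 lineage-negative arrays alone, 0 with the replicate block, 3 with the second quantile normalization, 7 with median centring, 6 with array weights, 11 with trend and robust, 0 with all probesets, 3 with the mean per gene and 2 with the sex covariate. Il2ra was among the calls wherever there were any, except without wildtype array 2. The count at an unadjusted p under 0.05 was 732 to 1502 with 1 array left out. The count at a size of 0.5 or more, 74 in the reported fit, was 64 to 136 with 1 array left out (135 without deficient array 1, 136 without wildtype array 1) and 465 with all probesets. The median size, 0.058 in the reported fit, was 0.058 to 0.0705 with 1 array left out and 0.0664 with all probesets.

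Deviations of same-numbered deficient and wildtype arrays from their group means had r of -0.13, 0.02 and 0.04, and those of differently numbered arrays had r between -0.113 and 0.0813. Means of 3 arrays hold such values near 0, so a weak shared effect would not show. Whether same-numbered samples were prepared together was not tested. With the replicate block 0 probesets passed, and 1091 had an unadjusted p under 0.05.

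Genes near 0 turned sign under some settings. With 1 array left out Gata3 ranged from -0.0128 to 0.22, Dtx1 from -0.0020 to 0.15, H2-Aa from -0.12 to 0.0491, Spi1 from -0.0586 to 0.11, Ptprc from -0.0532 to 0.0163, Ptcra from -0.0683 to 0.0716, Thy1 from -0.0732 to 0.18, Cd3e from -0.10 to 0.12 and Itgam from -0.13 to 0.14. Itgam was 0.0156 after the second quantile normalization. With the sex covariate Eif2s3y was 0.0256, Lef1 0.0058 and Ptcra 0.0084. The cause was not tested. No list median past 0.1 turned sign. Of probesets within 10 Mb of Tcf7, 4 reached an adjusted p under 0.2, and 3 where the probeset number had to lie among those of chromosome 11, an alternative chosen after seeing the data.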

Other observations

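The slight shift toward lower values in deficient cells differed with brightness. With probesets split into 4 equal bins by mean level, the median difference was 0.01 in the dimmest and -0.02 in the brightest bin. Of the 74 probesets at 0.5 or more, 3 lay in the dimmest bin, 22 and 33 in the middle bins and 16 in the brightest.

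Among genes with several probesets, chosen here after their values were seen, Anapc5, a subunit of the anaphase-promoting complex, had 5 probesets and all stood higher in deficient cells, with a median difference of 0.20 and no overlap of groups in 4. Dnajc13, a chaperone of endosomes, had 15 probesets and all stood lower, with a median of -0.15 and no overlap in 8. Of all probesets 3.93% stood apart on the higher and 6.01% on the lower side. Probesets of 1 gene share a transcript and are not replicates.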
